A study of Mus musculus with 6 samples.

Results

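The voltage-gated sodium, calcium and HCN channel genes were taken from RNA sequencing of mouse prefrontal cortex (PFC) by their symbols. The rule kept the Scn genes of α and β subunits, the Cacna, Cacnb and Cacng genes of calcium channel subunits, and the Hcn genes. It found 44 of the 54429 features in the count files, and all 44 are protein-coding genes in the GENCODE M21 annotation of GRCm38. They were grouped as 10 sodium channel α subunits (Nav α), 4 sodium channel β subunits (Nav β), 10 pore-forming calcium channel α1 subunits (Cav α1), 4 α2δ and 4 β subunits, 6 TARP genes (Cacng2 to Cacng5, Cacng7 and Cacng8), 2 other γ genes (Cacng1 and Cacng6) and 4 HCN genes.

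Nav channels carry the upstroke of the action potential, and their β subunits are small proteins that set channel gating and placement at the membrane. Cav channels let calcium into the cell. Their α1 subunit forms the pore and sets the current type (P/Q, N, L, R or T), while α2δ and β subunits bring α1 to the surface. TARPs are related to the γ subunit of muscle calcium channels but act mainly on AMPA receptors, whose trafficking and gating they control. HCN channels open on hyperpolarization, are modulated by cAMP, and carry the Ih current that sets resting potential and dendritic integration in cortical pyramidal neurons.

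Each of 3 groups had 2 libraries, which the labels call biological duplicates, from animals of 6 months. WT + vehicle were C57BL/6 x C3H mice, Tau + vehicle were PS19(P301S) mice, which carry a human tau transgene with the P301S mutation under the mouse prion promoter, and Tau + UNC0642 were PS19(P301S) mice given UNC0642, an inhibitor of the H3K9 methyltransferases EHMT1 and EHMT2. UNC0642 was injected at 1 mg/kg daily for 3 days and tissue was taken 24 h later, and the vehicle was saline with DMSO. There was no WT + UNC0642 group, so the inhibitor was seen only on the Tau background. The libraries were strand-specific and depleted of ribosomal RNA, and held 17005664 to 28972176 counts, of which the channel genes took 0.536 to 0.589%. Whole tissue was sequenced, so fewer cells of a type and less RNA per cell cannot be told apart.

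Several libraries stood apart in ways that bear on the comparisons. Prnp, the gene whose promoter drives the transgene, was at 1652 CPM (counts relative to the TMM-scaled library size) in the library labelled WT replicate 1 and at 873 CPM in WT replicate 2, against 1470 to 1694 CPM in the 4 Tau libraries. Mapt, the mouse tau gene, was at 576 CPM in the library labelled WT replicate 1 and 449 CPM in WT replicate 2. The 4 Tau libraries had 570.5 to 614 CPM. The library labelled WT replicate 1 was thus at the level of the Tau libraries in both genes. Whether it carries the transgene was not tested. The calls against WT + vehicle are also given without that library in a later paragraph. Xist, the RNA of the inactive X chromosome, was at 317, 191 and 235 CPM in WT replicate 2 and the 2 Tau + vehicle libraries. The remaining 3 libraries had 0.118 to 0.197 CPM. The Y-linked gene Ddx3y had 1705 to 2411 counts in these 3 and 2 to 18 counts in the others. The libraries thus split by sex, which the labels do not give. The comparison of Tau + UNC0642 with Tau + vehicle therefore coincided with that of Xist-low with Xist-high libraries, and the 2 cannot be told apart there. The same holds for Tau + UNC0642 against WT + vehicle once the library labelled WT replicate 1 is left out. The 10 striatal projection neuron markers summed to 214 to 258 CPM in 5 libraries and 440 CPM in Tau + vehicle replicate 2, and 9 oligodendrocyte markers summed to 5684 CPM in that library against 1494 to 3038 CPM in the others. The cortical excitatory neuron markers, led by Slc17a7 and Camk2a, summed to 2217 to 2701 CPM in all 6.

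Of the 44 genes, 40 were high enough to be tested. Scn4a, Scn10a, Scn11a and Cacng1, known from skeletal muscle and peripheral sensory neurons, had 0 to 6 counts in each library, and 3 counts are 0.107 to 0.178 CPM here. A gene was called when edgeR's quasi-likelihood test gave an unadjusted p-value under 0.05 with a fold change of at least 1.2, and Benjamini-Hochberg adjusted p-values are over all 20409 genes tested. In Tau + vehicle against WT + vehicle, 2 channel genes were called lower and 1 higher. All genes tested had 6.1% called lower and 3.72% higher. In Tau + UNC0642 against Tau + vehicle, again 2 were called lower and 1 higher, with 3.95% and 3.73% of all genes. In Tau + UNC0642 against WT + vehicle, 13 of the 40 were called lower and 1 higher, with 5.69% and 3.77% of all genes. The 3 comparisons share libraries and are given side by side.

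**Figure D1:**
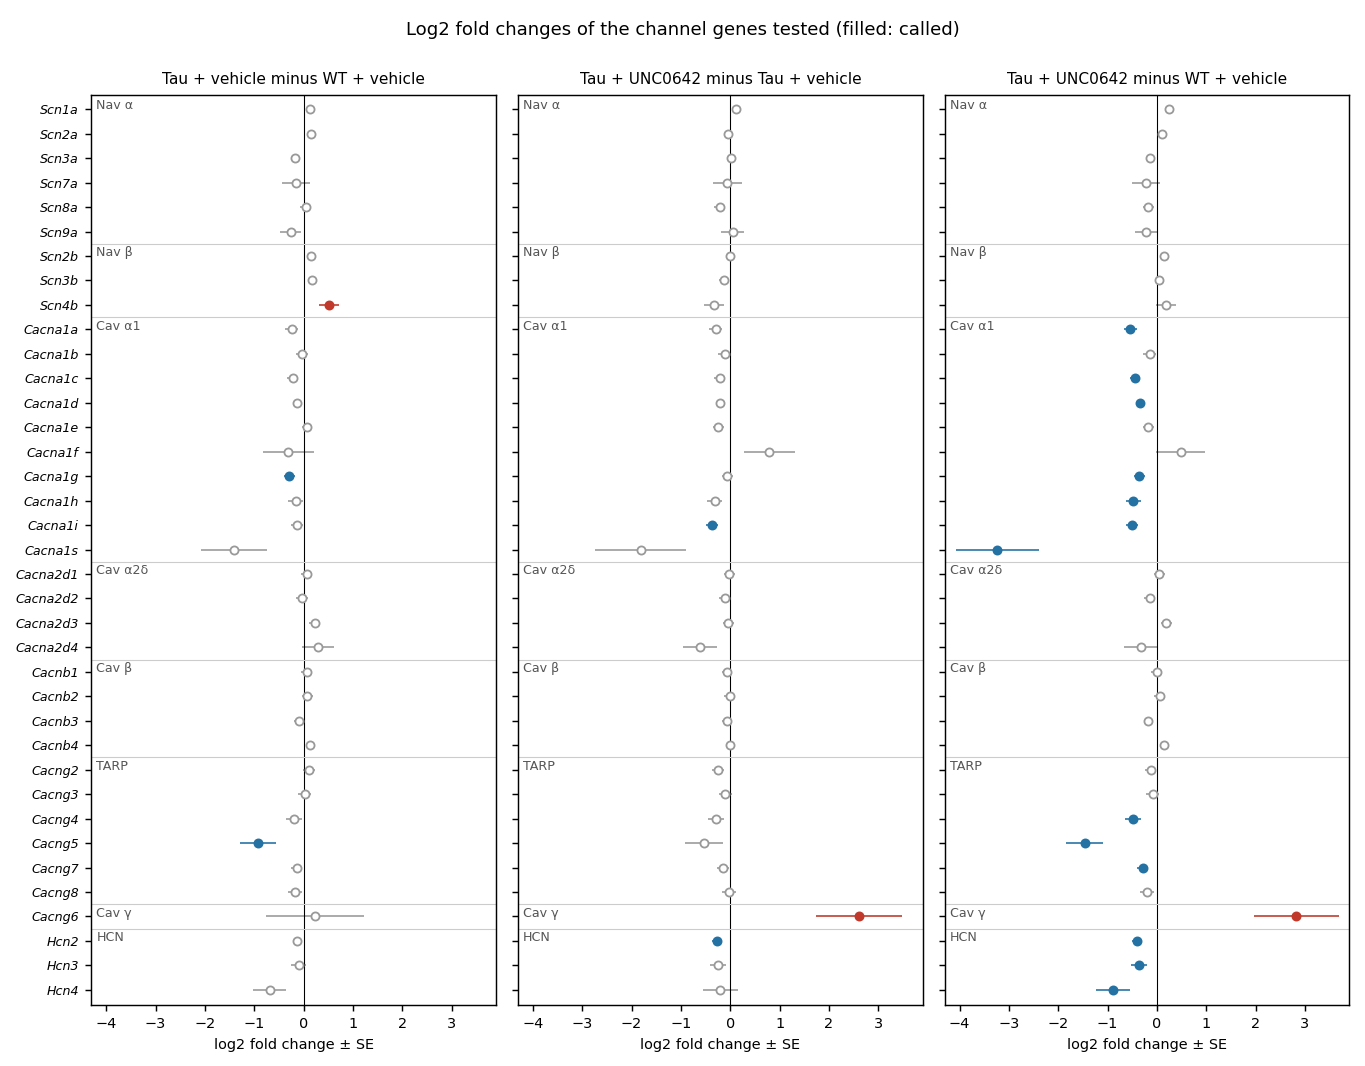
Log2 fold change (horizontal axis, log2 scale) with its standard error for the tested channel genes reported by name (vertical axis, by subfamily) in 3 comparisons. Filled blue points were called lower, filled red points called higher, and open grey points not called. In the right-hand panel the 13 genes called lower are in Cav α1, TARP and HCN, Cacng6 is called higher, and no Nav, α2δ or Cav β gene is called.

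The adjusted threshold set a limit. None of the 40 had an adjusted p under 0.05 in any comparison of edgeR's quasi-likelihood test, where 0.157%, 0.0196% and 0.216% of all genes did in Tau + vehicle against WT + vehicle, Tau + UNC0642 against Tau + vehicle and Tau + UNC0642 against WT + vehicle. At an unadjusted p under 0.05, whatever the fold, 3, 4 and 15 of the 40 passed, and the smallest adjusted p of a channel gene was 0.115. Limma-voom also put none under 0.05. DESeq2 put none there in the first 2 comparisons. In Tau + UNC0642 against WT + vehicle it put 4 of the 36 with an adjusted p there (Cacna1a, Cacna1c, Cacna1i and Hcn2, smallest adjusted p = 0.00862). The share of all genes is not given for DESeq2 or for the unadjusted p alone, so those counts have no background beside them. The channel genes' standard errors had a median of 0.114 to 0.115 (log2), against 0.181 to 0.184 over all genes.

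The median log2 fold change of the 40 genes was -0.07 in Tau + vehicle against WT + vehicle, -0.12 in Tau + UNC0642 against Tau + vehicle and -0.17 in Tau + UNC0642 against WT + vehicle. Over all genes tested the medians were -0.00, -0.00 and -0.01. For comparison, of 77 potassium channel (Kcn) genes tested, 8 were called lower and 4 higher in Tau + UNC0642 against WT + vehicle, with a median of -0.07.

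In Tau + UNC0642 against WT + vehicle, the 13 lower genes were 7 of 10 Cav α1 genes, 3 of 4 HCN genes and 3 of 6 TARP genes. None of the 11 tested Nav genes and none of the 8 α2δ and Cav β genes was called. The median log2 fold changes were -0.40 for Cav α1, -0.38 for HCN and -0.24 for TARP, against -0.17 for Nav α, 0.11 for Nav β, -0.05 for α2δ and 0.03 for Cav β. Nav α, with 5 of 7 genes below 0, was thus at the median of all 40 channel genes. The split by call also changed when the library labelled WT replicate 1 was left out, where Scn8a and Cacnb3 were called lower too. In the same comparison none of the 10 striatal and none of the 9 oligodendrocyte markers was called, and of the 7 cortical excitatory markers 1 was called lower (Tbr1) and 1 higher (Neurod6). Of 8 markers of all neurons, 3 were called higher (Nefl, Nefm and Syt1, log2 fold changes 0.30 to 0.38), and of 8 microglial markers 2 were higher (C1qb and C1qc, 0.53 and 0.52). Of 9 endothelial and mural markers 2 were lower (Cldn5 and Slco1a4, -0.57 and -0.42) and 1 higher (Kcnj8, 0.67). One marker each of interneurons (Kcnc1, -0.47), astrocytes (Sox9, -0.61), oligodendrocyte progenitors (Cspg4, -0.44) and meningeal fibroblasts (Col1a1, -0.72) was called lower. Their part in the channel genes' values was not tested.

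Promoter windows of RefSeq (GRCm38.p6, from 250 bases before to 50 bases after a gene's start) matched 32 of the 44 genes, with 43 windows. They held a median of 11 CG dinucleotides, against 7 in all 32851 windows. The TATA box letters TATAAA were in 4.65% of them (13.6% of all windows), the E-box CACGTG in none (7.15%), the short CRE letters TGACG in 14.0% (20.8%) and the GGACAG letters of the REST site in 16.3% (22.2%), all searched on both strands. The 250 bases before the start are shown for the matched members called lower in 2 comparisons, with every CG, the dinucleotide that DNA methylation uses, in capitals. The Cacna1i window is chr15:80286988-80287237 on the plus strand with 16 CG, the Hcn2 window chr10:79716384-79716633 on the plus strand with 16, and the Cacng5 window chr11:107915056-107915305 on the minus strand with 12. No chromatin mark was measured at these windows, and they differ in where the CG lie: Hcn2 ends in a run of CGG repeats.
Cacna1i: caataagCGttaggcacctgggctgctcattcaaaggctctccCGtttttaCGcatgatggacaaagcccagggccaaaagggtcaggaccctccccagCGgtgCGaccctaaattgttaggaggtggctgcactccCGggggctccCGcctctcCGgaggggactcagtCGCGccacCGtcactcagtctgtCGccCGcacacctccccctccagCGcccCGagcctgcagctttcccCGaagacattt
Hcn2: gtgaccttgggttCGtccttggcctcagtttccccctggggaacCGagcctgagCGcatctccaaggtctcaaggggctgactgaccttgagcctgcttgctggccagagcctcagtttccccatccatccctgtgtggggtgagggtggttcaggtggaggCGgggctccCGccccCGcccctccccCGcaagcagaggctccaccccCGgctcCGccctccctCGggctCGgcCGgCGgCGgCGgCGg
Cacng5: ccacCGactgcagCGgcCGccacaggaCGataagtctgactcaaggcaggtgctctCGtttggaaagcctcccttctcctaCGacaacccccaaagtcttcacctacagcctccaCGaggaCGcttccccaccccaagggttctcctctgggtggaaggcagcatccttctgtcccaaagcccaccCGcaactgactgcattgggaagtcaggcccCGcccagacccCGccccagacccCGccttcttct

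The T-type (low-voltage-activated) α1 genes Cacna1g, Cacna1h and Cacna1i, whose channels support burst firing, were all called lower in Tau + UNC0642 against WT + vehicle. Cacna1i (chromosome 15, 80287238 to 80398279, plus strand) was at 116 and 132 CPM in WT + vehicle replicates 1 and 2, at 126 and 98.7 CPM in Tau + vehicle and at 90.2 and 83.7 CPM in Tau + UNC0642. Both treated libraries were below all 4 others. Its log2 fold change was -0.51 ± 0.12 (standard error) against WT + vehicle (adjusted p = 0.138, unadjusted p = 0.00144) and -0.37 ± 0.12 against Tau + vehicle (adjusted p = 0.432, unadjusted p = 0.0101), and it was 1 of the 2 channel genes called lower in the latter.

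Cacna1g was at 84.0 and 91.8 CPM in WT + vehicle, at 78.3 and 65.0 CPM in Tau + vehicle and at 63.5 and 73.5 CPM in Tau + UNC0642. The Tau and Tau + UNC0642 ranges overlapped, and both lay below WT. It was called lower in Tau + vehicle (log2 fold change -0.29 ± 0.11, adjusted p = 0.349) and in Tau + UNC0642 (-0.36 ± 0.11, adjusted p = 0.262) against WT + vehicle. Cacna1h was at 61.2 and 60.1 CPM in WT + vehicle and at 42.3 and 44.8 CPM in Tau + UNC0642, a log2 fold change of -0.48 ± 0.15 (adjusted p = 0.268). The 2 Tau + vehicle libraries divided, with replicate 1 at 64.7 CPM, above WT, and replicate 2 at 43.5 CPM, at the level of the treated mice.

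Among the 7 high-voltage-activated α1 genes, the P/Q-type gene Cacna1a and the L-type genes Cacna1c, Cacna1d and Cacna1s were called lower in Tau + UNC0642 against WT + vehicle. Cacna1a (chromosome 8, 84388440 to 84640246), the P/Q-type pore of presynaptic terminals, was at 131 and 157 CPM in WT + vehicle, at 136 and 108 CPM in Tau + vehicle and at 109 and 89.5 CPM in Tau + UNC0642. The treated libraries were below both WT libraries and reached up to Tau + vehicle replicate 2. Its log2 fold change was -0.54 ± 0.13 against WT + vehicle (adjusted p = 0.165), and against Tau + vehicle it was -0.30 ± 0.13 with an unadjusted p of 0.05004, just outside the call.

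The L-type genes Cacna1c and Cacna1d encode channels that couple activity to transcription in the nucleus, and both were called lower. Cacna1c was at 106 and 110.1 CPM in WT + vehicle, at 102 and 81.9 CPM in Tau + vehicle and at 81.2 and 77.7 CPM in Tau + UNC0642 (log2 fold change against WT + vehicle -0.44 ± 0.11, adjusted p = 0.150). Cacna1d was at 70.1 and 66.4 CPM in WT + vehicle, at 62.2 and 61.8 CPM in Tau + vehicle and at 56.3 and 51.7 CPM in Tau + UNC0642 (-0.34 ± 0.09, adjusted p = 0.184). The 3 groups of Cacna1d did not overlap, and its log2 fold change against Tau + vehicle, -0.20 ± 0.09, was under the fold limit. Cacna1s, the L-type gene of skeletal muscle, had 30 and 21 counts in WT + vehicle, 16 and 2 in Tau + vehicle and 2 in each treated library, and was called lower in Tau + UNC0642 against WT + vehicle (fitted log2 fold change -3.23 ± 0.84, adjusted p = 0.184). Its summed counts in Tau + UNC0642 were 0.101 times those of WT + vehicle after scaling (95% exact interval 0.0265 to 0.275, counting error only), and at 0.0882 to 1.18 CPM its level was near the floor of 3 counts. The interval takes each count as a separate event, while whether both mates of a pair were counted was not tested. Muscle markers summed to 12.5 to 15.8 CPM in all 6 libraries.

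**Figure D2:**
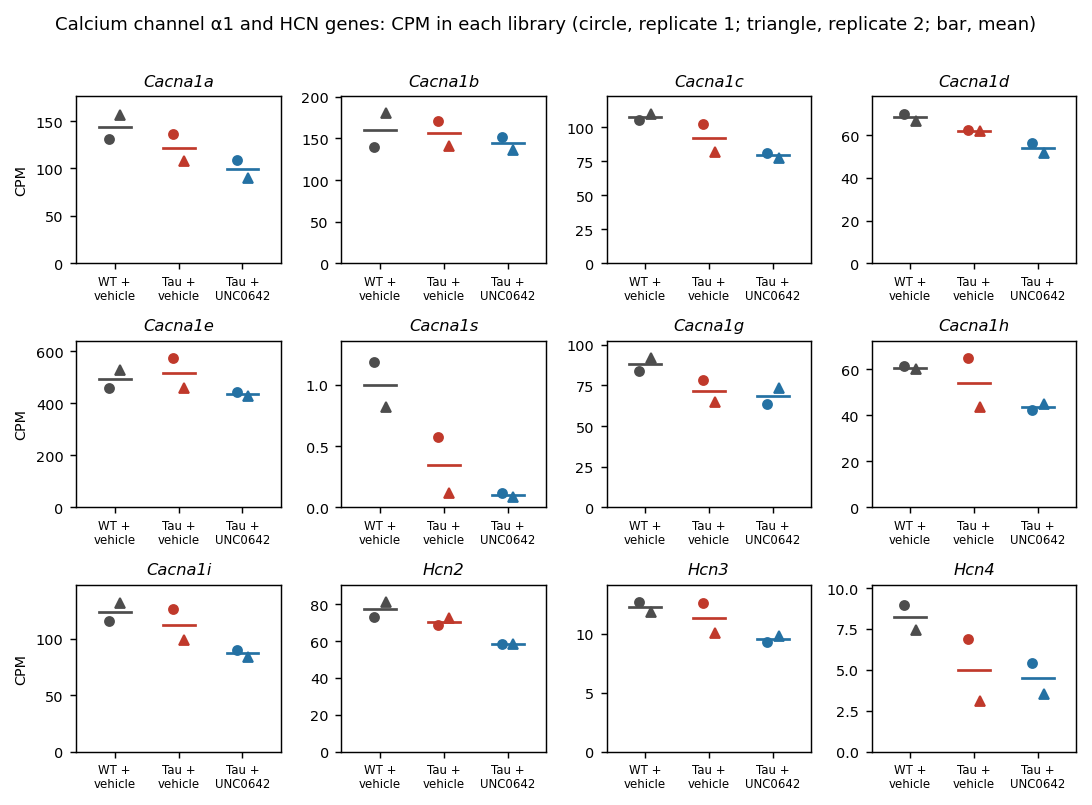
CPM (vertical axes, linear and from 0) of 9 Cav α1 genes and 3 HCN genes in the 6 libraries, by group. Circles are replicate 1, triangles replicate 2 and bars the group mean; in Cacna1c, Cacna1h and Cacna1i, Tau + vehicle replicate 1 lies nearer to WT and replicate 2 nearer to Tau + UNC0642.

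The remaining α1 genes were not called in any comparison. Cacna1e, the R-type pore and the α1 gene with the most counts, was at 458 and 529 CPM in WT + vehicle, at 576 and 458 CPM in Tau + vehicle and at 445 and 427 CPM in Tau + UNC0642. Its log2 fold changes were 0.07 ± 0.11 in Tau + vehicle and -0.18 ± 0.11 in Tau + UNC0642 against WT + vehicle (adjusted p = 0.838 and 0.553), and the 2 Tau + vehicle libraries were further apart than the group means. Cacna1b, the N-type pore, ranged from 136 to 180.0 CPM, and Cacna1f, the L-type gene of the retina, from 0.573 to 1.48 CPM. The log2 fold change of Cacna1f was 0.48 ± 0.50 in Tau + UNC0642 against WT + vehicle and 0.79 ± 0.51 against Tau + vehicle, opposite in sign to the other L-type genes. Per kb of exon, which allows levels to be compared between genes, Cacna1e led the α1 genes with 22.5 to 25.7% of their summed CPM per kb, followed by Cacna1b with 17.3 to 21.6%, and Cacna1i and Cacna1a with 12.7 to 14.5% and 11.8 to 14.9%, which overlapped.

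Summed over the subfamily, Cav α1 was at 80.8 and 92.1 CPM per kb in WT + vehicle, at 89.0 and 71.5 in Tau + vehicle and at 70.7 and 66.6 in Tau + UNC0642. The sums of the auxiliary α2δ and β subunits overlapped between the 3 groups. Cav β ranged from 88.7 to 99.1 CPM per kb and α2δ from 44.6 to 55.0 CPM per kb over the 6 libraries. Within each library, the ratio of summed α1 to summed α2δ plus β was 0.606 and 0.608 in WT + vehicle, 0.577 and 0.505 in Tau + vehicle and 0.480 and 0.473 in Tau + UNC0642. The 3 groups did not overlap in this ratio, which does not depend on library size and was computed after the members' values had been seen. With 2 libraries a group it was not tested.

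**Figure D3:**
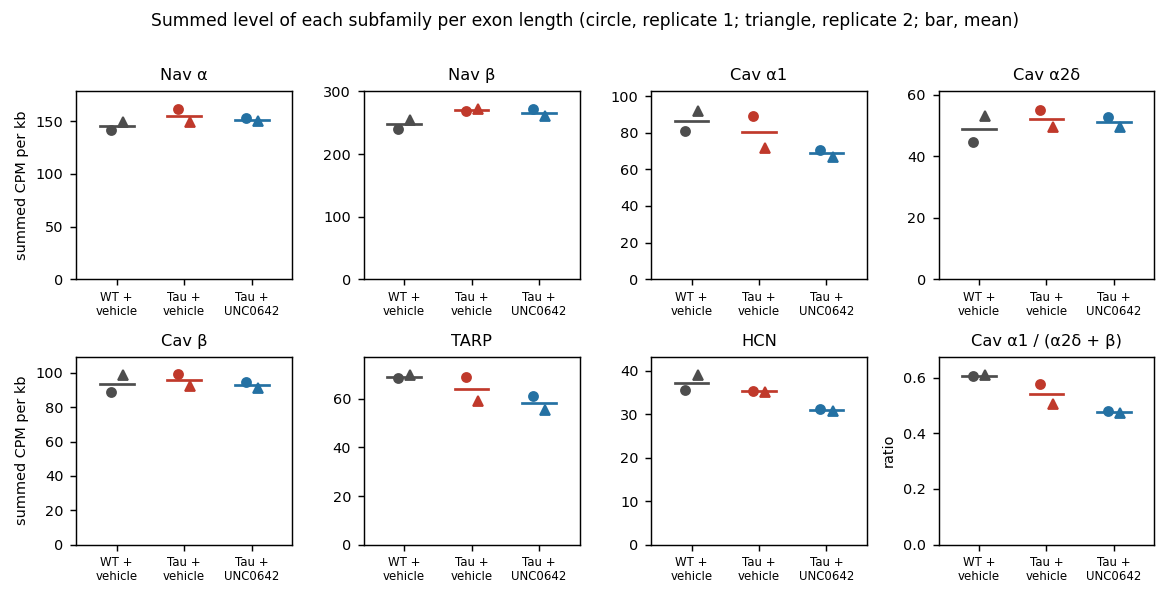
Summed CPM per kb of exon (vertical axes, from 0) of 7 subfamilies in the 6 libraries, and the ratio of Cav α1 to α2δ plus β. Circles are replicate 1, triangles replicate 2 and bars the group mean; the ratio falls between 0.606 and 0.608 in WT + vehicle and between 0.473 and 0.480 in Tau + UNC0642, while the Cav β and α2δ sums of the 3 groups overlap.

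Cacna2d1, the most abundant α2δ gene and a gabapentin receptor, was at 390 and 463 CPM in WT + vehicle, at 490.5 and 400.0 CPM in Tau + vehicle and at 453 and 426 CPM in Tau + UNC0642. The 3 groups overlapped, and its log2 fold changes were 0.06 ± 0.11, -0.02 ± 0.11 and 0.04 ± 0.11 in Tau + vehicle against WT + vehicle, Tau + UNC0642 against Tau + vehicle and Tau + UNC0642 against WT + vehicle (adjusted p = 0.847, 0.978 and 0.905). Cacna2d3 ranged from 87.9 to 122 CPM, Cacna2d2 from 21.17 to 24.96 CPM and Cacna2d4 from 1.94 to 3.78 CPM, and none was called. Of the β subunits, Cacnb4 led with 309 and 328 CPM in WT + vehicle, 351 and 350.2 CPM in Tau + vehicle and 361 and 339 CPM in Tau + UNC0642, and WT lay below the other 4 libraries. Its log2 fold changes against WT + vehicle were 0.14 ± 0.07 and 0.13 ± 0.07 (adjusted p = 0.480 and 0.498). Cacnb3 ranged from 125 to 152 CPM, Cacnb1 from 77.4 to 95.2 CPM and Cacnb2 from 47.6 to 58.7 CPM.

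HCN2 is the isoform of thalamus and much of cortex, and its gene carried the smallest p of all channel genes. Hcn2 (chromosome 10, 79716634 to 79736108, plus strand) was at 73.4 and 81.3 CPM in WT + vehicle, at 68.7 and 72.3 CPM in Tau + vehicle and at 58.2 and 58.4 CPM in Tau + UNC0642. The treated libraries lay close together and were below all 4 others. Its log2 fold change was -0.41 ± 0.09 against WT + vehicle (adjusted p = 0.115, unadjusted p = 0.000866) and -0.27 ± 0.09 against Tau + vehicle (adjusted p = 0.441, unadjusted p = 0.0109).

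Per kb, Hcn2 was the leading HCN gene with 58.2 to 65.4% of the family's sum. Hcn3 and Hcn4 were called lower in Tau + UNC0642 against WT + vehicle. Hcn4, the slow pacemaker isoform, was at 8.99 and 7.46 CPM in WT + vehicle, at 6.90 and 3.09 CPM in Tau + vehicle and at 5.45 and 3.53 CPM in Tau + UNC0642 (-0.89 ± 0.34, adjusted p = 0.341). Hcn3 was at 12.7 and 11.8 CPM in WT + vehicle, at 12.7 and 10.1 CPM in Tau + vehicle and at 9.30 and 9.84 CPM in Tau + UNC0642 (-0.36 ± 0.16, adjusted p = 0.407).

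All 6 TARP genes had negative log2 fold changes in Tau + UNC0642 against WT + vehicle, from -1.46 to -0.09, and 3 were called. Cacng7, a type II TARP, was at 50.7 and 44.3 CPM in WT + vehicle and at 42.5 and 35.5 CPM in Tau + UNC0642 (-0.29 ± 0.11, adjusted p = 0.357). Cacng4 was at 12.2 and 12.4 CPM in WT + vehicle and at 7.99 and 9.53 CPM in Tau + UNC0642 (-0.49 ± 0.16, adjusted p = 0.276). Their Tau + vehicle libraries, at 43.7 and 42.6 CPM for Cacng7 and at 11.6 and 9.85 CPM for Cacng4, lay between the other 2 groups.

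Cacng5 (chromosome 11, 107874605 to 107915055, minus strand) depended on the library labelled WT replicate 1. It was at 23.9 CPM there, at 8.63 CPM in WT replicate 2, at 9.12 and 7.96 CPM in Tau + vehicle and at 5.57 and 6.22 CPM in Tau + UNC0642. With all libraries it was called lower in Tau + vehicle (log2 fold change -0.93 ± 0.36, adjusted p = 0.360) and in Tau + UNC0642 (-1.46 ± 0.38, adjusted p = 0.182) against WT + vehicle. Without the library labelled WT replicate 1 the log2 fold changes were -0.01 and -0.55, and the latter alone was called (unadjusted p = 0.0292). The other 3 TARP genes were not called. Cacng3, with the most counts of the 6, was at 48.6 and 59.9 CPM in WT + vehicle, at 60.7 and 49.0 CPM in Tau + vehicle and at 53.1 and 49.2 CPM in Tau + UNC0642, with log2 fold changes from -0.11 to 0.02 and a standard error of 0.13. Cacng2, which encodes stargazin, ranged from 40.1 to 53.9 CPM and Cacng8 from 25.3 to 35.5 CPM.

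Cacng6, a γ subunit gene next to Cacng7 and Cacng8 on chromosome 7, had 10 to 16 counts in 5 libraries and 161 counts in Tau + UNC0642 replicate 2. In CPM it was at 0.473 and 0.625 in WT + vehicle, at 0.429 and 0.916 in Tau + vehicle and at 0.592 and 7.10 in Tau + UNC0642. It was the 1 gene called higher in both comparisons with treated mice (log2 fold changes 2.6 ± 0.87 and 2.83 ± 0.87, adjusted p = 0.461 and 0.251), and without that library the log2 fold changes were -0.14 and 0.11. The call rested on 1 library.

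**Figure D4:**
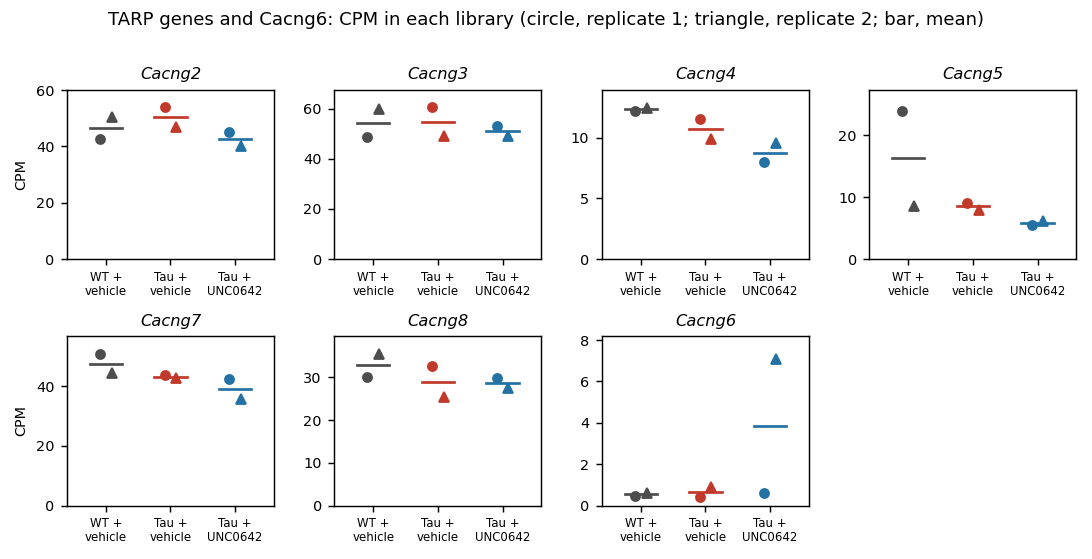
CPM (vertical axes, linear and from 0) of the 6 TARP genes and Cacng6 in the 6 libraries, by group. Circles are replicate 1, triangles replicate 2 and bars the group mean; the library labelled WT replicate 1 stands alone in Cacng5 at 23.9 CPM, and Tau + UNC0642 replicate 2 stands alone in Cacng6 at 7.10 CPM.

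The brain Nav α genes showed little difference between groups. Scn2a, the most abundant channel gene of all and an α subunit of the initial segment, was at 903 and 945 CPM in WT + vehicle, at 1064 and 974 CPM in Tau + vehicle and at 987 and 997.5 CPM in Tau + UNC0642. The WT libraries were the lowest, and the log2 fold changes were 0.14 ± 0.08 in Tau + vehicle against WT + vehicle, -0.04 ± 0.08 in Tau + UNC0642 against Tau + vehicle and 0.10 ± 0.08 in Tau + UNC0642 against WT + vehicle (adjusted p = 0.474, 0.921 and 0.623). Per kb it held 49.6 to 52.1% of the Nav α sum, with Scn1a at 18.3 to 23.0% and Scn8a at 17.2 to 22.5%, which overlapped.

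Scn1a, the main α subunit of fast-spiking interneurons, was at 320 and 318 CPM in WT + vehicle, at 329 and 366 CPM in Tau + vehicle and at 373 and 385 CPM in Tau + UNC0642. The treated libraries were the highest, and the log2 fold change against WT + vehicle, 0.25 ± 0.08 (unadjusted p = 0.00822, adjusted p = 0.248), was just under the fold limit of 1.2. Scn8a ranged from 409 to 556 CPM, Scn3a from 104 to 125 CPM, Scn7a from 11.1 to 25.6 CPM and Scn9a from 4.90 to 7.46 CPM, and none was called.

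All 4 β subunit genes had log2 fold changes above 0 in both Tau groups against WT + vehicle, from 0.04 to 0.51, and 1 was called. Scn2b, with the most counts, was at 383 and 399 CPM in WT + vehicle, at 440 and 429 CPM in Tau + vehicle and at 431 and 428 CPM in Tau + UNC0642. The WT libraries were the lowest, with log2 fold changes of 0.15 ± 0.07 and 0.14 ± 0.07 against WT + vehicle (unadjusted p = 0.0547 and 0.0794, adjusted p = 0.412 and 0.471), and it was not called. Scn3b ranged from 117 to 145 CPM.

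Scn4b (chromosome 9, 45138395 to 45154152) was the 1 channel gene called higher in Tau + vehicle against WT + vehicle. It was at 81.4 and 77.7 CPM in WT + vehicle, at 93.4 and 134 CPM in Tau + vehicle and at 110.1 and 70.8 CPM in Tau + UNC0642, and the treated libraries spanned the WT level. Its log2 fold change was 0.51 ± 0.20 (adjusted p = 0.351), and 0.24 (unadjusted p = 0.260) without Tau + vehicle replicate 2. Scn4b encodes the β subunit of resurgent sodium current and is abundant in striatal projection neurons. All 10 striatal markers were called higher in the same comparison, and 9 of 10 were called lower in Tau + UNC0642 against Tau + vehicle, with Adora2a and Drd2 in the lead. Their part in the value of Scn4b was not tested.

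**Figure D5:**
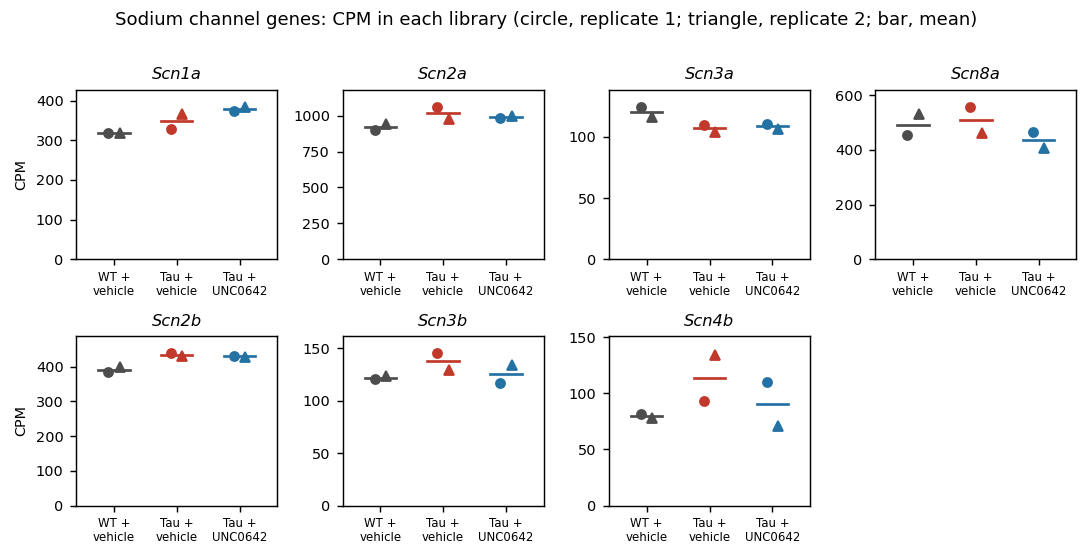
CPM (vertical axes, linear and from 0) of 4 brain Nav α genes and 3 Nav β genes in the 6 libraries, by group. Circles are replicate 1, triangles replicate 2 and bars the group mean; Tau + vehicle replicate 2 is the highest library in Scn4b at 134 CPM, and the treated libraries are the highest in Scn1a at 373 and 385 CPM.

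The 2 Tau + vehicle libraries differed from each other in the pore genes. Without Tau + vehicle replicate 1, 10 channel genes were called lower in Tau + vehicle against WT + vehicle, 6 of them Cav α1. Without replicate 2, none was. In the same way, Tau + UNC0642 against Tau + vehicle gave 10 lower genes without replicate 2, 6 of them Cav α1, and 2 without replicate 1, none of them Cav α1. All genes tested had 3.38 to 5.51% called lower in these 4 fits. Replicate 2 is the library with more striatal and oligodendrocyte marker RNA, and the part of that in the pore genes was not tested.

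In Tau + UNC0642 against WT + vehicle, the count of channel genes called lower varied less with the library left out. The median log2 fold change of the 40 genes ran from -0.257 without the library labelled WT replicate 1 to -0.0645 without WT replicate 2. The former fit set the Xist-low treated libraries against the Xist-high WT replicate 2 alone. Sex and group therefore cannot be told apart in it. Without the library labelled WT replicate 1, 14 channel genes were called lower, 10 of them among the 13, and Cav α1 then counted 9 of 10, TARP 2 of 6 and HCN 1 of 4. Cacna1b (-0.33 ± 0.12), Cacna1e (-0.28 ± 0.12), Scn8a (-0.28 ± 0.12, unadjusted p = 0.0394) and Cacnb3 (-0.26 ± 0.10, unadjusted p = 0.0226) were added, so that 1 Nav α and 1 Cav β gene were among the lower genes. Hcn3 (-0.31 ± 0.19), Hcn4 (-0.75 ± 0.41) and Cacng7 (-0.19 ± 0.13) lost their calls. The medians were then -0.44 for Cav α1, -0.40 for HCN, -0.28 for TARP, -0.28 for Nav α and -0.07 for Cav β. The log2 fold changes of Cacna1a, Cacna1i and Hcn2 were then -0.66 ± 0.15, -0.61 ± 0.13 and -0.48 ± 0.10. Those of Cacna1c, Cacna1d, Cacna1g, Cacna1h and Cacng4 were -0.47, -0.30, -0.42, -0.47 and -0.5, and all kept their calls. Tau + vehicle against WT + vehicle then had Cacna1a and Cacna1g called lower and none higher, where all genes had 4.64% and 4.38%. Without WT replicate 2, which left only Xist-low libraries in this comparison, 11 were called lower, all among the 13, and Cacng6 and Cacna2d3 were among those called higher. All genes had 4.76% and 5.34% called lower in these 2 fits. Cacna1a, Cacna1c, Cacna1d, Cacna1i, Cacna1s, Cacng5 and Hcn2 were called lower in every fit with 1 library left out. The others of the 13 lost the call in at least 1 fit. The fits without a Tau + vehicle library removed none of this comparison's own libraries. By the labels, treated mice differed from WT in both genotype and treatment, and no fit could separate the 2. The genotype of the library labelled WT replicate 1, the only WT library in the fit without WT replicate 2, was not tested.

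The channel genes that were lower also had more G and C. Across the 40 genes, log2 fold change in Tau + UNC0642 against WT + vehicle had a Spearman correlation of -0.41 with the GC content of the longest transcript, a description over genes of the same 4 libraries. The 13 lower genes had a median of 58.0% GC (49.6 to 65.4%) and the other 27 a median of 50.8% (38.6 to 65.0%). With offsets for GC content, 10 of the 13 were still called lower, 7 of them Cav α1, and Hcn2, Hcn3 and Cacng7 were not. The Pearson correlation of GC content with log2 fold change was -0.17 across the 40 genes and -0.10 over all 20229 genes with a GC value.

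Partner genes of the channels were taken from a list of 31, all tested. In Tau + vehicle against WT + vehicle, 1 was called higher and 2 lower, in Tau + UNC0642 against Tau + vehicle 4 lower and none higher, and in Tau + UNC0642 against WT + vehicle 2 higher and 2 lower. These counts are near the share of all genes called (6.1% lower and 3.72% higher, 3.95% and 3.73%, and 5.69% and 3.77% in the same order), apart from the 4 of 31 lower in the second. Without the library labelled WT replicate 1, Rem2, Gem, Ryr1 and Stac2 kept their calls against WT + vehicle, while Itpr3 (-0.93, unadjusted p = 0.0617) and Calm2 (0.25, under the fold limit) did not. That fit added the Nav partners Sptbn4 (-0.32 and -0.30) and Fgf13 (-0.32 and -0.32), called lower in Tau + vehicle and in Tau + UNC0642 against WT + vehicle, and Cbarp (-0.28) in the latter. With all libraries, none of the 7 Nav partners (Ank3, Sptbn4, Nedd4l and 4 FGF homologous factors), none of the 4 genes of the NALCN leak channel complex and neither HCN partner (Pex5l, Kctd3) was called.

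Among regulators of Cav channels, the RGK protein gene Rem2, whose product inhibits high-voltage-activated calcium current, moved in both directions. Rem2 was at 2.41 and 2.42 CPM in WT + vehicle, at 4.26 and 5.61 CPM in Tau + vehicle and at 2.61 and 2.38 CPM in Tau + UNC0642. The Tau + vehicle libraries were above all others, and the log2 fold changes were 1.02 ± 0.26 against WT + vehicle (adjusted p = 0.231) and -0.98 ± 0.27 after UNC0642 (adjusted p = 0.395). The related Gem was at 3.23 and 2.34 CPM in WT + vehicle and at 5.57 and 4.499 CPM in Tau + UNC0642 (0.85 ± 0.29, adjusted p = 0.286). Stac2, which slows the inactivation of L-type channels, was at 45.7 and 45.5 CPM in WT + vehicle, at 48.6 and 49.2 CPM in Tau + vehicle and at 39.9 and 36.0 CPM in Tau + UNC0642, lower in treated mice against both (-0.37 ± 0.09 against Tau + vehicle and -0.27 ± 0.09 against WT + vehicle, adjusted p = 0.387 and 0.306). Cbarp, a negative regulator of Cav channels, was called lower in Tau + UNC0642 against Tau + vehicle (-0.34 ± 0.11, adjusted p = 0.441), and the calmodulin gene Calm2 higher against WT + vehicle (0.30 ± 0.08, adjusted p = 0.180).

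Of the intracellular calcium release channels, the ryanodine receptor gene Ryr1 was at 26.7 and 29.6 CPM in WT + vehicle, at 22.5 and 19.5 CPM in Tau + vehicle and at 24.9 and 16.9 CPM in Tau + UNC0642, and was called lower in both Tau groups against WT + vehicle (-0.42 ± 0.17 and -0.44 ± 0.17, adjusted p = 0.371 and 0.347). Itpr3 was lower in Tau + vehicle against WT + vehicle (-1.15 ± 0.37, adjusted p = 0.2999), at 2.61 and 2.35 CPM against 6.31 and 4.73 CPM. Ryr3 was lower after UNC0642 (-0.28 ± 0.13, adjusted p = 0.559), and its Tau + vehicle replicate 2, at 82.3 CPM, was above the 57.6 to 61.1 CPM of the other 5 libraries.

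Several members lie next to each other in the genome. Scn3a, Scn2a, Scn1a, Scn9a and Scn7a form a cluster on chromosome 2, Scn2b and Scn4b are neighbours on chromosome 9, Cacng7, Cacng8 and Cacng6 on chromosome 7, and Cacng1, Cacng4 and Cacng5 on chromosome 11. The called genes were not confined to a cluster, since the 7 Cav α1 genes are on 7 chromosomes. Of the 15 members called in any comparison, 7 overlap an annotated gene on the opposite strand (Cacna1a, Cacna1c, Cacna1d, Cacna1h, Cacna1s, Cacng4 and Hcn3). So do members not called, among them Cacna1b, Cacnb4, Scn1a and Cacna2d1. As the strand setting of the counting is not given in the sources used here, reads of such pairs may not be told apart.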

How the data were processed

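Gene expression was measured by RNA sequencing of PFC in 6 libraries, 2 per group, and grouped by the labels. Per the labels and the study's methods, the authors trimmed reads with Cutadapt, aligned them to mouse RefSeq mRNAs with TopHat2 and counted them per gene with featureCounts (mm10), and deposited raw counts (versions and strand setting not given in the sources used here). In 2 files 26 gene names had turned into dates and were restored by row position. Counts were tested with edgeR 4.0.16 in R 4.3.3: genes kept by filterByExpr (minimum count 10, total 15), TMM scaling, and the quasi-likelihood test on all 6 libraries with 1 mean per group. The common biological coefficient of variation was 12.3% on 3 residual degrees of freedom. The script was tested on simulated data. P-values measure the spread between 2 libraries per group. Some members are counted in the totals and sums but not reported here by name. Full statistics are given for members called in any comparison and for the member of highest mean CPM in each subfamily where reported, and partner genes are named when called. The members and lists were chosen with earlier results of these data known. DESeq2 1.42.0, limma 3.58.1, other filters, a replicate block and leaving out each library were alternatives, and a term for sex-linked expression and GC offsets were added after seeing the data. Replicate numbers did not pair the libraries.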

Additional observations from a re-analysis of the deposited data

How the results depend on the processing

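With DESeq2 size factors, the called genes were unchanged in all 3 comparisons. For the alternatives other than the adjusted p and a library left out, the share of all genes called is not given. The channel gene counts under those settings therefore have no background beside them. With an adjusted p under 0.05, edgeR's test called 0 channel genes higher and 0 lower in each. For Tau + vehicle against WT + vehicle (1 higher, 2 lower), the higher count was 0 with the DESeq2 Wald test and 0 with the term for sex-linked expression, and the lower count was 4 without a filter and 4 with the replicate block. Leaving out each library gave 0 to 2 higher and 0 to 10 lower. For Tau + UNC0642 against Tau + vehicle (1 higher, 2 lower), the higher count was 0 with limma-voom and 0 with the sex-linked term, and the lower count was 7 without a filter, 4 with the 2 groups alone and 1 with GC offsets. Leaving out each library gave 0 to 1 higher and 0 to 10 lower. Only WT + vehicle held both Xist levels, so the sex-linked term rested on the difference between the 2 WT libraries. It therefore cannot separate sex-linked expression from treatment in this comparison. With the term, this comparison's median moved from -0.12 to 0.0154, and neither Cacna1i nor Hcn2 was called. For Tau + UNC0642 against WT + vehicle (1 higher, 13 lower), the higher count was 0 with limma-voom and 3 with the sex-linked term, and leaving out each library gave 1 to 3. The lower count was 10 to 13 under the alternatives other than the adjusted p, and 9 to 14 with a library left out. With the sex-linked term, which here sets the treated libraries against the library labelled WT replicate 1 alone, the median was -0.0649. With a library left out, the median ran from -0.257 without the library labelled WT replicate 1 to -0.0645 without WT replicate 2. The log2 fold change of Cacng6 after UNC0642 ran from -0.137 without Tau + UNC0642 replicate 2 to 3.46 without replicate 1. Without WT replicate 2, Cacng5 had an adjusted p of 0.000617 in Tau + UNC0642 and 0.00406 in Tau + vehicle against WT + vehicle. Without Tau + UNC0642 replicate 1, 1 channel gene, Cacng6, had an adjusted p of 0.0195 in Tau + UNC0642 against WT + vehicle and 0.0364 against Tau + vehicle. The cause of these shifts was not tested.

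With the replicate block the counts of lower genes were 4, 2 and 12, and Hcn3 lost its call. The deviations of replicate 1 from the group means correlated at -0.0344, -0.0212 and -0.00335 between groups, so the numbers do not pair the libraries. A fit that leaves out a library leaves 1 in its group, assumed to vary like the others. Between 63.8 and 67.1% of counts from 1 to 20 were even numbers, and whether both mates of a pair were counted was not tested.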
